A study of Mus musculus with 6 samples.

Results

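p53 pathway genes were compared between mouse B16 tumours treated with radiation and an immune checkpoint inhibitor and B16 tumours treated with the inhibitor alone. The genes were p53 itself (Trp53 in the mouse), its regulators and its direct targets outside the Bcl2 family. They were taken by symbol from the gene count table, and all 32 symbols were found among its 34665 rows. Of these, 31 passed the filter on low counts and were tested together with the other genes, 16924 in all, and Ddit4l did not pass. B16 is a mouse melanoma cell line, and RNA was sequenced from whole harvested tumours. The group called RT_ICI, titled RI by the submitters, held 3 libraries of tumours given radiation and the inhibitor (replicates 1, 2 and 4). The ICI group held 3 libraries of tumours given the inhibitor only (replicates 1, 2 and 3). Whether each library came from a separate tumour or animal is not stated in the labels. Every library carried the genotype label WT, and both groups received the inhibitor, so no untreated tumour stands in either. Which checkpoint was inhibited, how much radiation was given, when tumours were taken and whether they lay in the irradiated area is not stated in the sources read. The series concerns tumour responses outside the irradiated field, and the comparison asks what differed when radiation was added.

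p53 is a transcription factor that is kept scarce in resting cells and is stabilised when DNA is damaged. The kinases Atm and Chek2 carry the signal of a broken strand to p53, and the ubiquitin ligase Mdm2, itself a p53 target, removes p53 again. The targets stop the cell cycle, above all through Cdkn1a (p21), repair DNA, adjust metabolism or start cell death. Much of this control acts on the p53 protein, which RNA counts do not show.

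The libraries held 22543721 to 45624013 counts. Mitochondrially encoded genes took 11.5% to 14.7% of the counts in RT_ICI and 4.39% to 5.01% in ICI. RT_ICI replicate 1 stood apart in that 29748 rows held counts there, while in each of the remaining libraries 22763 to 24891 rows did. All 7 melanoma markers were detected, and their summed level was 10072 to 14379 CPM (counts scaled to the effective library size by TMM, the trimmed mean of M values) in RT_ICI and 13340 to 15180 CPM in ICI. Mlana was the only 1 of the 7 called, at 1.68-fold higher in RT_ICI (adjusted p = 0.0376 in edgeR's quasi-likelihood test). Of the 7 log2 fold changes, 3 were above 0 and 4 below. T cell markers summed to 0.840 to 9.26 CPM in RT_ICI and 2.63 to 34.3 CPM in ICI, with all 5 markers above 0 in each group. Fat cell markers summed to 31.3 to 48.1 CPM in RT_ICI and 0.0503 to 21.1 CPM in ICI, with none of 5 called. Cfd made up most of the RT_ICI sums, at 24.9 to 39.3 CPM in RT_ICI and 0 to 15.5 CPM in ICI. Adipoq and Plin1 overlapped between the groups and were highest in ICI replicate 3. In the other 3, Cidec, Cfd and Retn, every RT_ICI library lay above every ICI library (17.8% of all tested genes). They reached the minimum level of the filter (0.282 CPM) in every RT_ICI library but in ICI only in replicate 3. They were therefore tested only because they were high in RT_ICI, so that the share is no like comparison. The part of these differences in the p53 genes was not tested. The same 4 members were called with mitochondrially encoded genes left out (4.24% of all tested genes higher). That fit only drops rows before filtering and scaling, so it does not test this part. In bulk tumours, fewer cells of a type and less RNA per cell cannot be told apart.

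Promoter sequences were examined for the p53 response element, the site through which p53 binds its targets. It is a pair of 10-base elements, each with a fixed C at base 4 and G at base 7, and reads alike on both strands. RefSeq windows on GRCm38.p6, from 250 bases before to 50 bases after a transcription start, were given for 25 of the 32 genes, with 35 windows in all. Sites were scored by mismatches to the consensus over both elements, with a gap of at most 1 base between them. Cdkn1a and Ccng1 each held a site with 1 mismatch, in 2 of the 35 windows (5.71%). At most 1 mismatch was found in 36 of all 32851 RefSeq promoter windows (0.11%). These windows are shown because both genes are reference targets of p53 and because the matches are nearly complete. The site is in capitals, and the strand shown is that of the gene. The Cdkn1a window is chr17:29090729-29091028, at the more upstream of its 2 listed starts, and the Ccng1 window is chr11:40755237-40755536 on the minus strand.
Cdkn1a: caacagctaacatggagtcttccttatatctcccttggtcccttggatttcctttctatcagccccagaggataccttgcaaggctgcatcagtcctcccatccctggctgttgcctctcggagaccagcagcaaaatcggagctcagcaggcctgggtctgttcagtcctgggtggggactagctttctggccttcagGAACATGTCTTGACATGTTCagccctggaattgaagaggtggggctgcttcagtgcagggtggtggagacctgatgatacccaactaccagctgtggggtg
Ccng1: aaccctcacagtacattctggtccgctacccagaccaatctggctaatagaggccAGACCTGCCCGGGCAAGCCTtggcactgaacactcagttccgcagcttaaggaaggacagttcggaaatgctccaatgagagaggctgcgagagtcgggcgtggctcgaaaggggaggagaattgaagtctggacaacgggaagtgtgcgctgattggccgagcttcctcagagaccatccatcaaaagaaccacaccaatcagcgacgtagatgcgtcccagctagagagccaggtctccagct

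Trp53, Aen and Sesn1 held sites with 3 mismatches. Sites with at most 3 mismatches were in 6 of the 35 windows (17.1%), from 5 genes, and in 928 of all windows (2.82%). Both Aen windows hold the same site, so that it is counted in each. The genes were chosen as p53, its regulators and its targets, and the mismatch limits were set after seeing the matches. The shares beside all windows are therefore no test. Below, capitals mark bases that match the consensus and lower case marks mismatches. The Trp53 site lies at chr11:69580284-69580303, the Aen site at chr7:78895937-78895956 and the Sesn1 site at chr10:41887266-41887285, all on the plus strand. The best match in a window of the called genes Plk3 and Phlda3 is given beside them, with 5 mismatches each. The 4 windows of Ak1 and the window of Ercc5 held nothing closer than 4 and 8 mismatches. A match describes letters only, and p53 binding was not measured.
Trp53: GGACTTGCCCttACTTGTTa
Aen: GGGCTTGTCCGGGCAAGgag
Sesn1: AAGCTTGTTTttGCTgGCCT
Plk3: GAGCAgGgTTAcACcTGCCa
Phlda3: GGcCcTGTCCGGGCggGTgC

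Of the 31 tested genes, 4 rose in RT_ICI tumours: the kinase gene Plk3, the Akt inhibitor gene Phlda3, the adenylate kinase gene Ak1 and the repair endonuclease gene Ercc5. The rises were 1.79-fold to 2.09-fold. None of the 31 fell, and 27 were not called at an adjusted p under 0.05 in edgeR's quasi-likelihood test. The 4 rises were 12.9% of the tested members, where 4.46% of all 16924 tested genes rose and 4.72% fell. By the unadjusted p under 0.05, 9 members were higher and 1 (Susd6) was lower, against a background of 15.7% and 15.8%. DESeq2 called 8 members higher (10.5% of all genes) and 0 lower (10.3%), and limma-voom called 2 higher (3.75%) and 0 lower (4.08%). In 9 members every RT_ICI library lay above every ICI library (17.8% of all tested genes) and in 2, Apaf1 and Xpc, every one lay below (19.4%). Of these 9, Perp reached the minimum level of the filter in 3 RT_ICI libraries but only 1 ICI library, so that it was tested only because it was high in RT_ICI. Perp is also among the 9 members higher at an unadjusted p under 0.05 and among the 8 called by DESeq2, so the same limit holds for those counts. The median log2 fold change over the 31 members was 0.22, and over all tested genes 0.01. The calls changed with single libraries left out, for the members and for all genes. No member was called higher without RT_ICI replicate 2 (0% of all genes), without RT_ICI replicate 4 (0.458%), without ICI replicate 1 (0%) or without ICI replicate 3 (0.0115%). Without ICI replicate 2, 1 member (Plk3) and 1.35% of all genes were called higher, and without RT_ICI replicate 1, 7 members and 8.91% of all genes. A correction for transcript length and GC content left 0 members and 1.57% of all genes called higher.

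**Figure D1:**
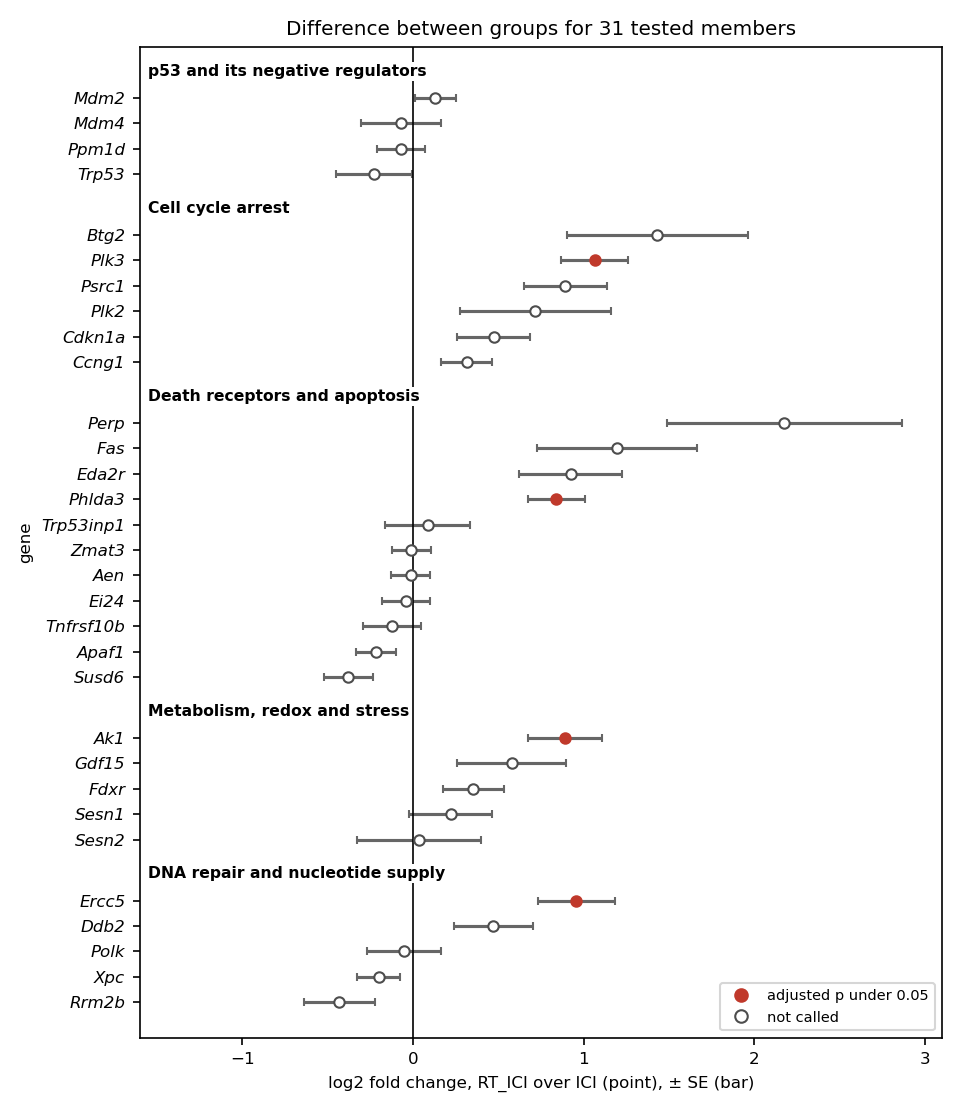
Log2 fold change of RT_ICI over ICI (x axis, points) with its standard error (bars) for the 31 tested p53 pathway genes (y axis), grouped by role, with called genes filled. Plk3, Phlda3, Ak1 and Ercc5 are the filled points, between 0.84 and 1.06, and Perp has the widest bar, at 2.18 ± 0.69.

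The p53 gene and its 3 regulators were not called. Trp53 had 48.0, 85.9 and 87.6 CPM in RT_ICI replicates 1, 2 and 4, against 80.4, 95.1 and 84.0 CPM in ICI replicates 1, 2 and 3. RT_ICI replicate 1 was low and the other libraries of both groups overlapped. The log2 fold change was -0.23 (SE 0.22, adjusted p = 0.512), and without RT_ICI replicate 1 it was 0.01. A pseudogene, Trp53-ps, is near-identical over 20.2% of the longest Trp53 transcript, so that counts there are uncertain. Mdm2 had 95.9, 87.9 and 83.3 CPM in RT_ICI, against 76.6, 79.2 and 88.4 CPM in ICI. The groups overlapped through ICI replicate 3, and the difference was 0.13 on the log2 scale (SE 0.12, adjusted p = 0.483). Mdm4, a relative of Mdm2 that blocks the activation domain of p53, had 75.2, 145 and 137 CPM in RT_ICI and 116 to 131 CPM in ICI (adjusted p = 0.863). Ppm1d, the phosphatase Wip1 that switches the damage signal off and is a p53 target, lay between 17.2 and 19.7 CPM in RT_ICI and between 18.6 and 20.3 CPM in ICI (adjusted p = 0.757). RT_ICI replicate 1 was the lowest of the 6 libraries for Trp53, Mdm4 and Ppm1d and the highest for Mdm2.

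**Figure D2:**
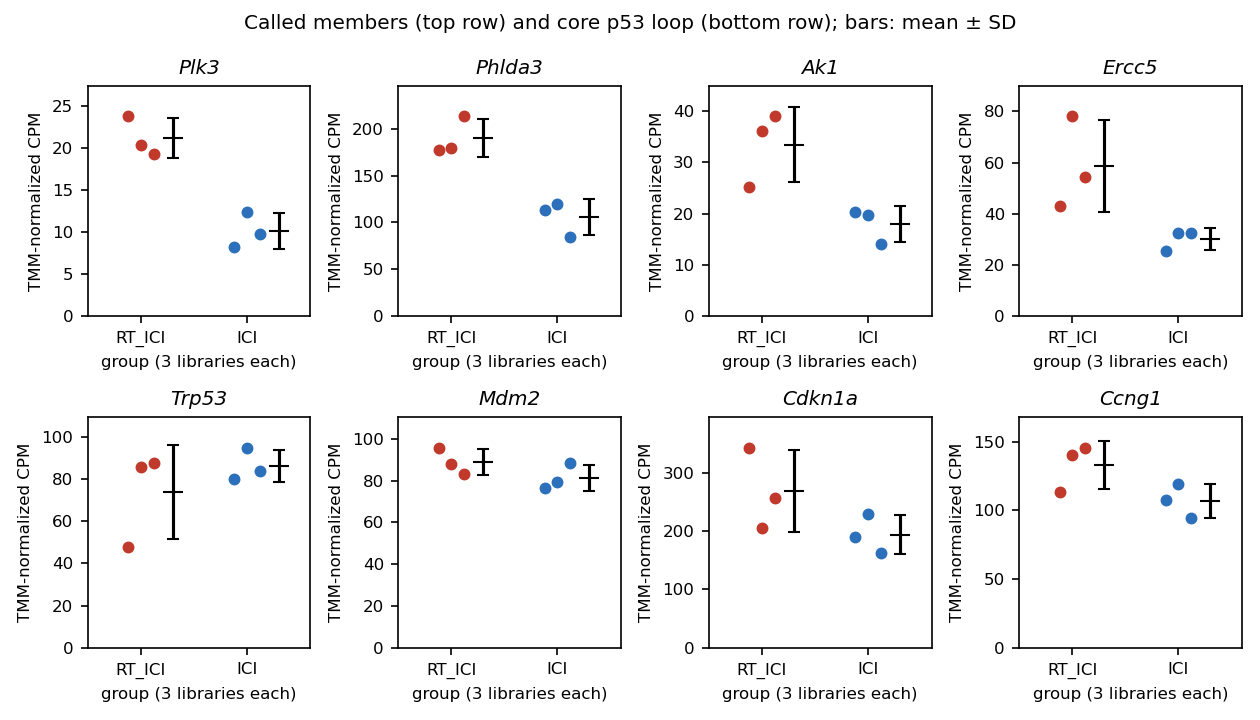
TMM-normalized CPM (y axes, from 0) in each library of RT_ICI and ICI (x axes), with the mean ± SD of 3 libraries beside the points, for the 4 called genes (top) and for Trp53, Mdm2, Cdkn1a and Ccng1 (bottom). The groups do not overlap for the 4 called genes, for example at 19.3 to 23.8 CPM in RT_ICI and 8.19 to 12.4 CPM in ICI for Plk3, and overlap for the other 4.

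All 6 genes listed under cell cycle arrest had a log2 fold change above 0 (51% of all tested genes did). Plk3 was the only 1 called, where 4.46% of all tested genes were called higher. Plk3, a polo-like kinase of the stress response that is also known as an early growth factor response gene (chromosome 4, 117128655 to 117133963 on GRCm38, ENSMUSG00000028680), had 23.8, 20.4 and 19.3 CPM in RT_ICI, against 8.19, 12.4 and 9.74 CPM in ICI. All 3 RT_ICI libraries were higher. The means were 21.1 ± 2.36 CPM in RT_ICI and 10.1 ± 2.12 CPM in ICI (SD, n = 3 each), 2.09-fold higher in RT_ICI (log2 fold change 1.06, SE 0.20, adjusted p = 0.0299 in edgeR). Tctex1d4 overlaps 3.32% of the exon length of Plk3. Corrected for length and GC content, the value was 0.81 with adjusted p = 0.0556, and over 16 other settings adjusted p ran from 5.997e-05 to 0.147.

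Cdkn1a, the main mediator of p53-dependent arrest, had 343, 205 and 257 CPM in RT_ICI, against 190, 229 and 162 CPM in ICI. RT_ICI replicate 1 was highest and RT_ICI replicate 2 lay below ICI replicate 2. The log2 fold change was 0.47 (SE 0.22, adjusted p = 0.175), and 0.26 without RT_ICI replicate 1. The gene AC167363.2 overlaps 7.68% of its exon length. Ccng1, cyclin G1, a p53 target that acts back on Mdm2, had 113, 140 and 146 CPM in RT_ICI, against 108, 119 and 94.4 CPM in ICI. Only ICI replicate 2 overlapped with RT_ICI, and the log2 fold change was 0.31 (SE 0.15, adjusted p = 0.193). Corrected for length and GC content and without RT_ICI replicate 1, a fit chosen after seeing the data, Ccng1 was called at 0.55 (adjusted p = 0.0414). Its adjusted p ran from 0.0667 to 0.654 over the other settings.

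Psrc1, which encodes a protein of the mitotic spindle, had 45.8, 82.6 and 58.5 CPM in RT_ICI, against 27.3, 31.8 and 41.7 CPM in ICI. The groups did not overlap, and the gene lay just outside the threshold at a log2 fold change of 0.89 (SE 0.24, adjusted p = 0.0564). It was called in 6 of 16 other settings, among them DESeq2 and the fit without RT_ICI replicate 1 (adjusted p = 0.0229), within a range from 0.00695 to 0.197.

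Btg2 and Plk2 were far higher in RT_ICI replicate 1 than in any other library. Btg2, an antiproliferative gene that acts with the mRNA deadenylase complex, had 35.2, 11.4 and 8.35 CPM in RT_ICI, against 7.33, 7.37 and 5.67 CPM in ICI. The groups did not overlap, but RT_ICI replicates 2 and 4 lay close to ICI. The log2 fold change of 1.43 (SE 0.53, adjusted p = 0.123) was 0.55 without that library, and DESeq2 called the gene (adjusted p = 0.0177). Plk2, the relative of Plk3, had 18.3, 5.90 and 6.25 CPM in RT_ICI, against 5.95, 5.38 and 7.17 CPM in ICI. Outside RT_ICI replicate 1 the libraries of Plk2 lay within 5.38 to 7.17 CPM, and the log2 fold change of 0.72 (adjusted p = 0.294) was -0.02 without it.

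**Figure D3:**
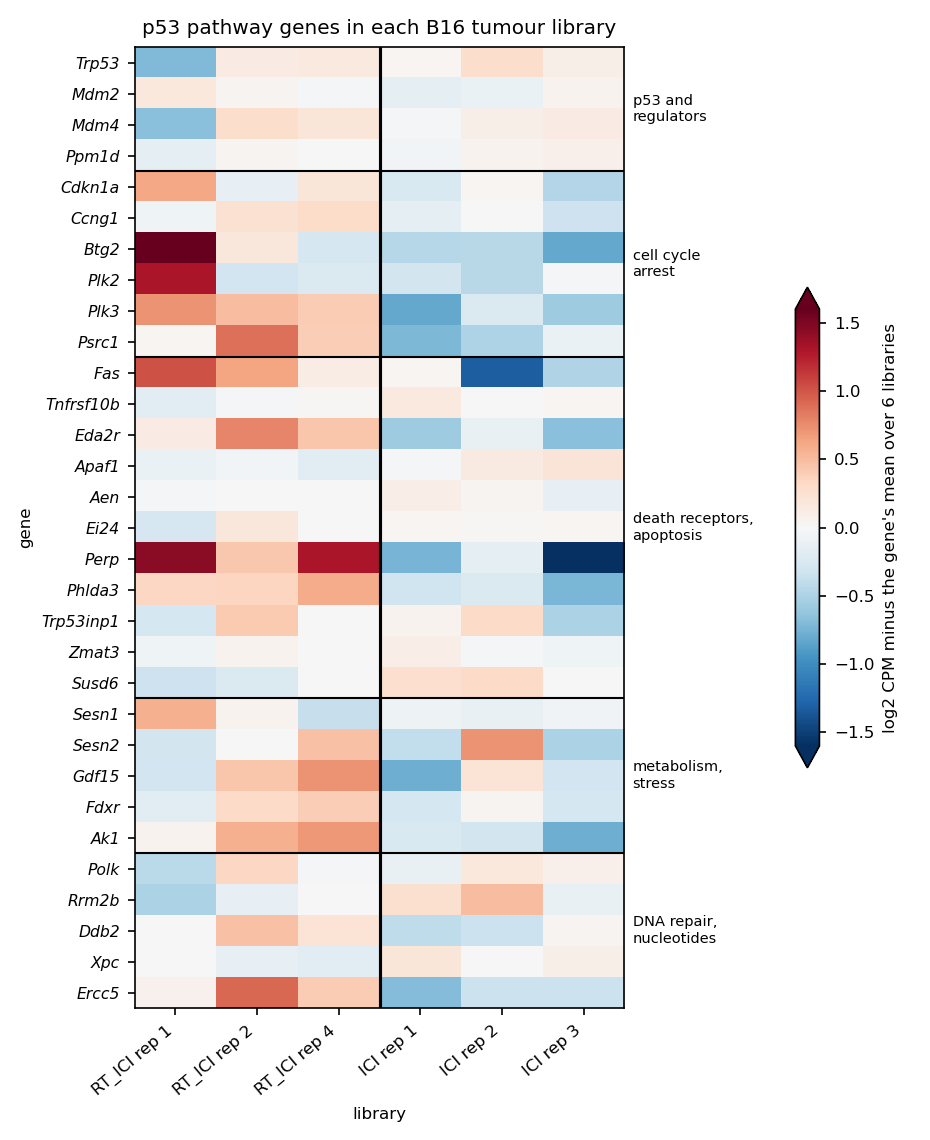
Log2 CPM of each tested gene (rows) minus its mean over the 6 libraries, in the RT_ICI and ICI libraries (columns), with rows grouped by role and red above and blue below the mean. Btg2, Plk2 and Perp are the darkest red cells of RT_ICI replicate 1, while Trp53 and Mdm4 are lowest in that library.

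Among the 11 genes of death receptors and apoptosis, Phlda3 rose (4.46% of all tested genes did), 0 fell (4.72%) and 10 were not called. Phlda3, a small protein that competes with Akt for membrane lipids and so restrains survival signalling (chromosome 1, 135766119 to 135769136, ENSMUSG00000041801), had 177, 179 and 214 CPM in RT_ICI, against 113, 120 and 84.6 CPM in ICI. All RT_ICI libraries were above all ICI libraries. The means were 190 ± 20.4 CPM in RT_ICI and 106 ± 18.9 CPM in ICI, 1.79-fold higher in RT_ICI (log2 fold change 0.84, SE 0.17, adjusted p = 0.0341). Corrected for length and GC content, the log2 fold change was 0.47 with adjusted p = 0.110, and adjusted p ran from 0.0001976 to 0.149 over the other settings. Phlda3 has the shortest longest transcript of the 32 genes (1435 bases) and the highest GC content (62.6%).

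Eda2r, a receptor of the tumour necrosis factor family for ectodysplasin A2, had 3.40, 5.39 and 4.25 CPM in RT_ICI, against 2.07, 2.87 and 1.94 CPM in ICI. The groups did not overlap, and the log2 fold change was 0.92 (SE 0.30, adjusted p = 0.0836). DESeq2 called the gene (adjusted p = 0.0264), as did the fit without RT_ICI replicate 1 (0.0431), within a range from 0.0264 to 0.252. Fas, the death receptor, had 1.88, 1.42 and 0.980 CPM in RT_ICI, against 0.920, 0.327 and 0.627 CPM in ICI. These values rest on 21 to 63 counts in RT_ICI and 13 to 32 in ICI, and the log2 fold change of 1.20 (SE 0.47) had adjusted p = 0.127. Activated T cells also carry Fas. The 5 T cell markers were not called and had log2 fold changes from -2.61 to -1.83 (SE from 0.87 to 1.35). All 5 reached the minimum level of the filter (0.282 CPM) in every ICI library but not in every RT_ICI library. They were therefore tested only because they were high in ICI. The part of T cells in the Fas values was not tested.

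Perp, a desmosomal membrane protein of epithelia that p53 induces during apoptosis, had 1.24, 0.586 and 1.12 CPM in RT_ICI, against 0.230, 0.377 and 0.0418 CPM in ICI. The groups did not overlap, but these are 24 to 35 counts in RT_ICI and 2 to 15 in ICI. The log2 fold change of 2.18 (SE 0.69, adjusted p = 0.0783) was called by DESeq2 (0.0410) and without a filter on low counts (0.0190), within a range from 0.0190 to 0.218. Summed keratinocyte markers were at 3.31 to 4.40 CPM in RT_ICI and 2.28 to 3.35 CPM in ICI. Sbsn made up most of this, at 3.27 to 4.19 CPM in RT_ICI and 1.98 to 2.72 CPM in ICI. Dsp, a desmosomal gene, was at 0.0467 to 0.426 CPM in RT_ICI and 0.167 to 0.554 CPM in ICI, and Krt5 and Krt14 held at most 2 counts in any library, with Krt14 at 0 in RT_ICI and Krt5 at 0 in ICI. Their part in the Perp values was not tested.

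The other genes of this role had log2 fold changes between -0.38 and 0.09. Susd6, a sushi domain gene induced by p53 after DNA damage, had 36.9, 39.3 and 46.2 CPM in RT_ICI, against 56.0, 57.1 and 46.0 CPM in ICI. The groups touched at RT_ICI replicate 4 and ICI replicate 3, and the log2 fold change was -0.38 (SE 0.14, adjusted p = 0.118). Apaf1, the scaffold of the apoptosome, had 40.3 to 43.8 CPM in RT_ICI and 44.6 to 52.0 CPM in ICI without overlap (log2 fold change -0.22, adjusted p = 0.245). Tnfrsf10b, the TRAIL death receptor, had 8.87 to 10.1 CPM in RT_ICI and 10.01 to 11.1 CPM in ICI. Aen, a nuclease, Zmat3, an RNA-binding zinc finger protein, and Ei24, a protein of the endoplasmic reticulum, had log2 fold changes between -0.04 and -0.01 with SE from 0.11 to 0.14. Trp53inp1, a stress protein of autophagy, ranged from 28.6 to 46.5 CPM in RT_ICI and 24.4 to 43.3 CPM in ICI (adjusted p = 0.839).

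In metabolism and stress, Ak1 rose (4.46% of all tested genes did) and the other 4 tested genes were not called. Ak1, cytosolic adenylate kinase, which balances the adenine nucleotides (chromosome 2, 32621758 to 32635058, ENSMUSG00000026817), had 25.2, 36.1 and 39.1 CPM in RT_ICI, against 20.4, 19.7 and 14.0 CPM in ICI. The means were 33.5 ± 7.29 CPM in RT_ICI and 18.1 ± 3.50 CPM in ICI, 1.85-fold higher in RT_ICI (log2 fold change 0.89, SE 0.22, adjusted p = 0.0445). Corrected for length and GC content, the log2 fold change was 0.72 with adjusted p = 0.0942. Limma-voom gave adjusted p = 0.0512, and the other settings ran from 0.00295 to 0.168. Ak1 is abundant in skeletal muscle, whose 6 markers summed to 2296, 979 and 15.96 CPM in RT_ICI replicates 1, 2 and 4 and to 201, 156 and 1.32 CPM in ICI replicates 1, 2 and 3, with none of the 6 at 0 throughout a group. Within RT_ICI, Ak1 was highest in replicate 4, where the muscle sum was lowest, while within ICI both Ak1 and the muscle sum were lowest in replicate 3. The part of muscle in the Ak1 values was not tested.

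Gdf15, a secreted stress cytokine, had 32.1, 54.0 and 65.2 CPM in RT_ICI, against 23.1, 46.0 and 32.1 CPM in ICI (log2 fold change 0.58, SE 0.32, adjusted p = 0.252). Fdxr, mitochondrial ferredoxin reductase, had 39.8 to 58.9 CPM in RT_ICI and 36.9 to 46.6 CPM in ICI (log2 fold change 0.35, adjusted p = 0.214), and was called without RT_ICI replicate 1 at 0.51 (adjusted p = 0.0467, within a range from 0.0467 to 0.874). Sesn1 and Sesn2, the sestrins, which restrain mTORC1, had log2 fold changes of 0.22 and 0.04 (adjusted p = 0.558 and 0.959). Sesn2 spread widely within ICI, from 32.6 to 76.5 CPM, against 37.7 to 63.9 CPM in RT_ICI. Ddit4l, an inhibitor of mTORC1, held 30, 25 and 1 counts in RT_ICI and 8, 3 and 10 in ICI, and was not tested.

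Among the 5 genes of repair and nucleotide supply, Ercc5 rose (4.46% of all tested genes did) and 4 were not called. Ercc5, the endonuclease XPG of nucleotide excision repair (chromosome 1, 44147744 to 44181260, ENSMUSG00000026048), had 43.2, 78.2 and 54.5 CPM in RT_ICI, against 25.4, 32.6 and 32.6 CPM in ICI. RT_ICI replicate 2 was the highest, and the lowest RT_ICI library lay above the highest ICI library. The means were 58.6 ± 17.9 CPM in RT_ICI and 30.2 ± 4.13 CPM in ICI, 1.94-fold higher in RT_ICI (log2 fold change 0.96, SE 0.22, adjusted p = 0.0419). Corrected for length and GC content it was 1.05 with adjusted p = 0.0528, and limma-voom gave 0.0512, within a range from 0.00166 to 0.167 over the other settings.

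The damage sensors of the same repair pathway, Xpc and Ddb2, were not called. Xpc had 32.7, 29.9 and 28.8 CPM in RT_ICI, against 37.5, 32.9 and 34.9 CPM in ICI, all RT_ICI libraries below all ICI libraries (log2 fold change -0.20, SE 0.13, adjusted p = 0.303). Ddb2 had 6.77 to 9.35 CPM in RT_ICI and 5.06 to 6.92 CPM in ICI (log2 fold change 0.47, SE 0.23, adjusted p = 0.201), and 23.8% of its exon length overlaps Acp2, so that its counts are uncertain. Rrm2b, the p53-induced subunit of ribonucleotide reductase, had 14.5, 18.9 and 20.6 CPM in RT_ICI, against 24.7, 29.1 and 19.0 CPM in ICI (log2 fold change -0.43, SE 0.21, adjusted p = 0.193), with near-identical copies over 27.7% of its transcript. Polk, a translesion DNA polymerase, had 11.7 to 20.1 CPM in RT_ICI and 14.6 to 17.9 CPM in ICI (adjusted p = 0.884). The difference between Ercc5 and these genes was not tested.

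**Figure D4:**
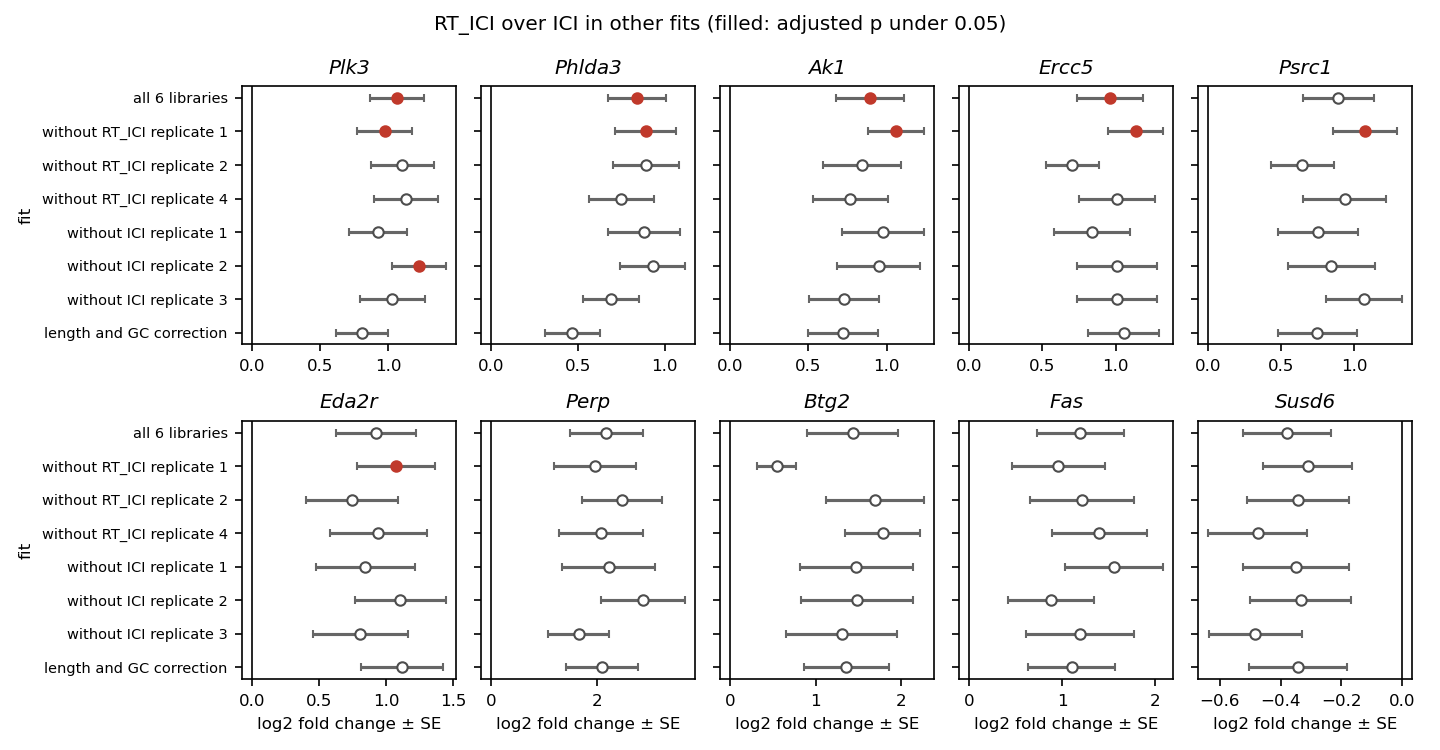
Log2 fold change of RT_ICI over ICI (x axes) with its standard error (bars) for 10 genes at an unadjusted p under 0.05, in the fit of all 6 libraries, in fits that leave out each library and in the fit corrected for length and GC content (y axis), with called values filled. The 4 called genes keep values from 0.47 to 1.23 throughout but are called in few of these fits, and Btg2 is 0.55 without RT_ICI replicate 1.

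The members spanned a wide range of levels. Per kilobase of the longest transcript, Phlda3 (132 CPM per kilobase in RT_ICI and 73.9 in ICI) and Cdkn1a (129 in RT_ICI and 93.1 in ICI) stood highest. Ei24 (44.9 in RT_ICI and 46.3 in ICI) and Ccng1 (37.9 in RT_ICI and 30.5 in ICI) followed. Fas (0.878 in RT_ICI and 0.384 in ICI) and Perp (0.503 in RT_ICI and 0.111 in ICI) were the lowest of the tested genes. Of the 31 genes, 8 were highest in RT_ICI replicate 1 and 8 were lowest there. Over all tested genes that library was highest for 19.9% and lowest for 22.1%. RT_ICI replicate 2 was also the highest library for 8 members, and for 20.4% of all tested genes. ICI replicate 3 was the lowest library for 12 of the 31 members and for 19% of all tested genes. The 5 genes with a promoter site of at most 3 mismatches had log2 fold changes of 0.47 for Cdkn1a, 0.31 for Ccng1, 0.22 for Sesn1, -0.01 for Aen and -0.23 for Trp53.

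Genes upstream of p53 and its cofactors were lower or not called in RT_ICI. Of 22 listed, 19 were tested, of which 0 rose (4.46% of all tested genes), 2 fell (4.72%) and 17 were not called. Atm, the kinase that starts the response to broken DNA, was 3.08-fold lower at 9.40, 6.99 and 8.17 CPM in RT_ICI, against 28.1, 22.3 and 25.2 CPM in ICI (log2 fold change -1.62, SE 0.18, adjusted p = 0.0189). Its groups lay far apart, and it stayed called in the fit corrected for length and GC content (-1.35, adjusted p = 0.0236), but not without RT_ICI replicate 2, ICI replicate 1 or ICI replicate 3 (adjusted p from 0.0571 to 0.137). Cop1, a ubiquitin ligase for p53, was 1.42-fold lower at 51.7, 55.6 and 54.6 CPM in RT_ICI, against 71.6, 77.4 and 81.6 CPM in ICI (log2 fold change -0.51, SE 0.11, adjusted p = 0.0378). After the correction it was at -0.19 (adjusted p = 0.298), the highest adjusted p of its other settings, which began at 0.00148. The p53 activator locus Cdkn2a held 0, 1 and 2 counts in RT_ICI and 0, 1 and 11 in ICI, and the p53 relative Trp63, also a marker of keratinocytes, held at most 6 counts in a library. Neither was tested. At an unadjusted p under 0.05 in edgeR, 2 were higher (15.7% of all tested genes) and 4 lower (15.8%). DESeq2 called 0 higher (10.5% of all genes) and 3 lower (10.3%), and limma-voom 0 higher (3.75%) and 2 lower (4.08%).

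Of 20 other p53 targets, 2 rose (4.46% of all tested genes), 0 fell (4.72%) and 18 were not called. At an unadjusted p under 0.05 in edgeR, 4 were higher (15.7% of all tested genes) and 1 lower (15.8%). Ptprv, a phosphatase that mediates p53-dependent arrest in the mouse, had 2.38, 1.37 and 2.38 CPM in RT_ICI, against 0.374, 0.629 and 0.523 CPM in ICI, 3.97-fold higher in RT_ICI (log2 fold change 1.99, SE 0.39, adjusted p = 0.0339). These values rest on 51 to 67 counts in RT_ICI and 13 to 25 in ICI. Corrected for length and GC content, Ptprv had adjusted p = 0.0516, within a range from 0.0008119 to 0.152. Sertad1, a coregulator of cyclin-dependent kinase and E2F activity, had 26.2, 23.9 and 22.4 CPM in RT_ICI, against 10.5, 13.5 and 10.02 CPM in ICI, 2.13-fold higher in RT_ICI (log2 fold change 1.09, SE 0.17, adjusted p = 0.0260). It stayed called after that correction (0.76, adjusted p = 0.0415), within a range from 1.654e-06 to 0.141. Bax, the proapoptotic target of the Bcl2 family, had 92.2, 155 and 157 CPM in RT_ICI, against 62.2, 86.3 and 79.2 CPM in ICI. All RT_ICI libraries were higher, and the log2 fold change of 0.83 (SE 0.23) had adjusted p = 0.0571. Without RT_ICI replicate 1 it was 1.04 with adjusted p = 0.0139, and in the corrected fit 0.44 with adjusted p = 0.291. DESeq2 called 4 of the 20 higher (10.5% of all genes) and 1 lower (10.3%), and limma-voom 2 higher (3.75%) and 0 lower (4.08%).

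Of 14 genes that p53 lowers through p21 and the DREAM repressor complex, 1 fell (4.72% of all tested genes), 0 rose (4.46%) and 13 were not called. By the unadjusted p under 0.05 in edgeR, 4 were lower (15.8% of all tested genes) and 0 higher (15.7%). DESeq2 called 3 lower (10.3% of all genes) and 0 higher (10.5%), and limma-voom 1 lower (4.08%) and 0 higher (3.75%). Brca1, of homologous recombination, had 44.2, 34.7 and 40.5 CPM in RT_ICI, against 105, 66.2 and 104 CPM in ICI, 2.31-fold lower in RT_ICI (log2 fold change -1.21, SE 0.20, adjusted p = 0.0264, range over the other settings 7.258e-07 to 0.141). ICI replicate 3 was the highest of the 6 libraries for 12 of these 14 genes, where it was highest for 18% of all tested genes. The median log2 fold change was -0.34 for this list, -0.10 for the upstream genes and 0.19 for the other targets. Without RT_ICI replicate 2, ICI replicate 1 or ICI replicate 3, 0 genes of these lists were called in either direction.

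**Figure D5:**
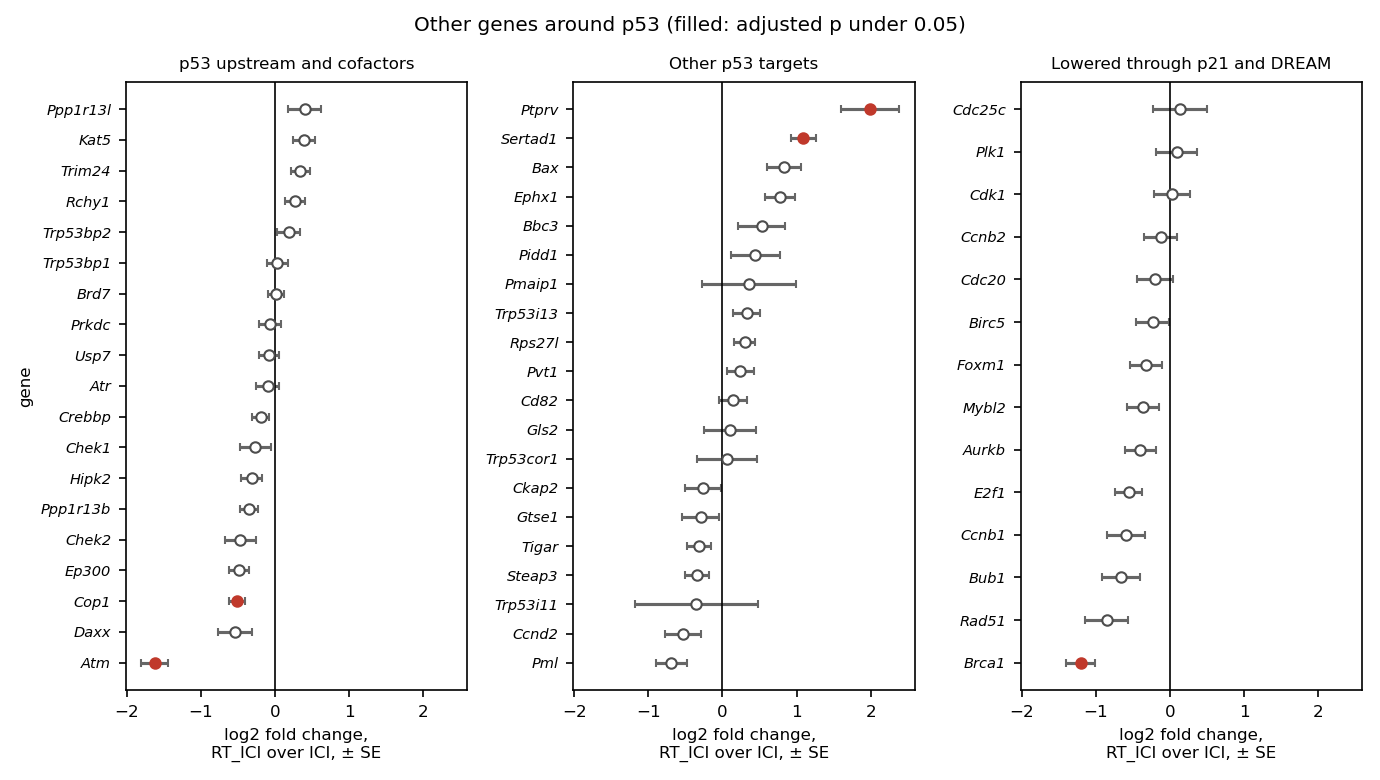
Log2 fold change of RT_ICI over ICI (x axes) with its standard error (bars) for the tested genes of 3 lists around p53 (y axes), with called genes filled. Atm is the lowest point, at -1.62, and Ptprv the highest, at 1.99.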

How the data were processed

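RNA from 6 B16 tumours was sequenced. The authors deposited whole-number counts per Ensembl gene. HISAT2 and the builds GRCm38 and mm10 are named in the submitters' processing notes, and the counting tool, annotation release, strand setting and versions are not stated there. Whether reads of overlapping genes on opposite strands were told apart in the counts is therefore not known. Rows without a symbol (83) were kept under their identifiers.

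Counts were filtered with filterByExpr, scaled by TMM and compared with the robust quasi-likelihood test of edgeR 4.0.16 (R 4.3.3) on group alone, RT_ICI over ICI. Adjusted p-values are Benjamini-Hochberg values over all 16924 tested genes, from this test unless another is named, and a gene was called under 0.05. SE values come from the coefficient and the F statistic. Levels are TMM-normalized CPM. Whether each library is a separate tumour or animal is not stated in the labels. The p-values therefore reflect only differences among libraries, which may be technical. No pair of libraries agreed within sampling noise (chi-square per degree of freedom at least 39.4 over 15 pairs).

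Other settings tried were scaling by median of ratios or upper quartile, other count filters, DESeq2 1.42.0, limma-voom (limma 3.58.1), non-robust estimation, a replicate block, mitochondrially encoded genes left out, each library left out, an adjusted p under 0.1, and a per-library loess offset for length and GC content. Positions, lengths and GC content came from GENCODE M21 (GRCm38), for 99.6% of tested genes, with exon overlap from bedtools 2.31.1 and near-identity (200 bases at 95%) from blastn 2.17.0. Promoter windows came from RefSeq (GRCm38.p6), and their mismatch limits were set after seeing the matches. The edgeR script was tested on simulated data. The members and lists were chosen with earlier results of these data known. Values in every library are given for members called or at an unadjusted p under 0.05 and for Trp53, Mdm2, Cdkn1a and Ccng1, and of the other lists the called genes and Atm, Bax, Cdkn2a and Trp63 are named. Other genes given by library were chosen after their values were seen.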

Additional observations from a re-analysis of the deposited data

How the results depend on the processing

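The share of all tested genes called higher in the same setting is given in brackets. Of the p53 members, 4 were called higher by edgeR's quasi-likelihood test (4.46%). The count was 8 with DESeq2 (10.5%), 2 with limma-voom (3.75%) and 0 with the length and GC correction (1.57%). At an adjusted p under 0.1 in edgeR it was 7 (10.6%). Perp, which was tested only because it was high in RT_ICI, is among the 8 of DESeq2 and among these 7. The count ran from 0 to 7 over the fits that left out 1 library each (0% to 8.91%). It was 7 with the length and GC correction without RT_ICI replicate 1 (6.99%), a fit chosen after seeing the data. The cause of these shifts was not tested. Median-of-ratios and upper-quartile scaling, other filters, non-robust estimation and leaving out mitochondrially encoded genes gave 4 to 6 (3.23% to 6.18%). Under every alternative 0 members were called lower, where 0% to 10.8% of all tested genes were called lower. With the replicate number as a block the count was 2 (2.36%), Ercc5 and Psrc1. The labels do not tie the numbers to a shared animal or day, only 2 numbers occur in both groups, and deviations of same-numbered libraries correlated at 0.353 and 0.0909, so that the pairing is not established. Over all genes, 754 were called higher and 799 lower, against 1746 and 1703 with DESeq2, 265 and 354 with the length and GC correction, 400 and 245 with the block, and 1046 and 497 with upper-quartile scaling.

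Of the 31 members, 20 kept the sign of their log2 fold change in every other setting in which they were tested, the fit chosen after seeing the data aside, and 11 did not, none of them called. There were 16 such settings, of which Fas and Perp were tested in 15, since neither passed the filter of at least 1 CPM in 3 libraries. Upper-quartile scaling gave 0.013 for Mdm4, 0.016 for Ppm1d, 0.073 for Aen, 0.043 for Ei24, 0.078 for Zmat3 and 0.029 for Polk. A filter of at least 1 CPM in 3 libraries gave 0.019 for Aen and 0.024 for Zmat3. Without a filter on low counts the value was -0.013 for Sesn2. The length and GC correction gave 0.17 for Mdm4, 0.013 for Aen, 0.17 for Zmat3, -0.17 for Sesn2 and 0.11 for Polk. The replicate block gave -0.12 for Trp53inp1 and -0.32 for Sesn2. The fit chosen after seeing the data gave 0.42 for Mdm4, -0.023 for Plk2, 0.048 for Aen, 0.0039 for Ei24, 0.22 for Zmat3, -0.0088 for Sesn1 and 0.29 for Polk. Over the fits that left out 1 library each, values that changed sign ran from -0.37 to 0.0060 for Trp53, -0.23 to 0.17 for Mdm4, -0.022 to 1.01 for Plk2, -0.092 to 0.026 for Aen, -0.14 to 0.069 for Ei24, -0.12 to 0.27 for Trp53inp1, -0.054 to 0.031 for Zmat3, -0.058 to 0.42 for Sesn1, -0.19 to 0.53 for Sesn2 and -0.26 to 0.12 for Polk. Perp and Fas rest on few counts, which limits both.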
